A study of Mus musculus with 4 samples.

Results

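The genes examined here are 34 genes of the unfolded protein response and of the first steps of secretion, compared across 3 kinds of mouse innate lymphoid cell. They were chosen by name, and all 34 were found by their Ensembl identifiers among the 30731 genes listed for every library; all 34 also passed the filter on low counts that left 25283 genes for testing. RNA was sequenced from natural killer (NK) cells, a group 1 population, from group 2 cells (ILC2) and from a line with group 3 features (MNK-3), cell types that the series also took for Hi-C, an assay of chromosome contacts. The NK library came from spleen and the ILC2 library from bone marrow, each from wild-type C57BL/6 mice pooled at 8 to 12 weeks, with 1 library per cell type. The ILC2 had been expanded with IL-25, IL-33, IL-2 and IL-7 at 10 ng/ml. MNK-3 is 1 wild-type line that began as day-15 fetal thymocytes of NIH-Swiss mice, kept in IL-7 and IL-15 at 10 ng/ml, with 2 libraries. Cell type, tissue and culture therefore cannot be told apart, and for MNK-3 neither can strain nor the gene set that was counted.

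Proteins bound for secretion or for the cell surface enter the endoplasmic reticulum (ER) through the Sec61 channel, are folded there by chaperones of the Hsp70 and Hsp90 families and by lectins that hold glycoproteins, and gain disulfide bonds from protein disulfide isomerases. Proteins that fail to fold are passed back to the cytosol by ER-associated degradation (ERAD). When unfolded protein builds up, the sensors IRE1, PERK and ATF6 start the unfolded protein response. IRE1 cuts a short intron from Xbp1 mRNA, which yields an active transcription factor. PERK phosphorylates eIF2alpha, which lowers translation in general while that of ATF4 goes up. ILC2 are known for abundant secretion of IL-5 and IL-13.

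The DNA element through which ATF6 and the spliced form of XBP1 act on ER chaperone genes is the ER stress element, CCAAT and CCACG with 9 bases between them. These letters were searched on both strands of the 250 bases before each start site in RefSeq's mouse promoters (build GRCm38.p6). Of the 34 genes, 29 had an entry; Hyou1, Manf, Atf6, Sec61a1 and Ssr2 had none. The element was found in 9 of the 29 genes (31%), against 37 of all 32851 promoters (0.113%). A gene was counted if any of its promoters held the element, and the 32851 promoters include those of the members. Since the element is known to act on ER chaperone genes, several of which are members, these shares are a description and not a test. Of the 9, 8 are folding genes and the other, Syvn1, belongs to ERAD. The elements are shown because they are a sequence feature that many of the folding genes share. Each is printed 5′ to 3′ in the direction of the element, with CCAAT and CCACG in capitals.
Hspa5: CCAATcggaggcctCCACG
Hsp90b1: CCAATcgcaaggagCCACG
Hsp90b1: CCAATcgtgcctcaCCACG
Calr: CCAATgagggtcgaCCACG
Canx: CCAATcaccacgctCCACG
Creld2: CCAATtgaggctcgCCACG
Dnajc3: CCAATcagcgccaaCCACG
Pdia6: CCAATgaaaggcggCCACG
Ero1lb: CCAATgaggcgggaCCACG
Syvn1: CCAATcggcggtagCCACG

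Hsp90b1 held 2 elements and the other 8 genes 1 each. Of the 10 elements, 6 lay on the gene's own strand and 4 on the opposite one, and they began between 212 and 44 bases before the start. The element of Hspa5 lies at chr2:34772025-34772043, 65 to 47 bases before the RefSeq start. The GENCODE gene starts at 34771970, so this element lies within it. The surroundings are shown for Hsp90b1 (chr10:86705510-86705694, minus strand) and Calr (chr8:84846935-84847181, minus strand), the chaperone genes with the highest signal per kilobase of exon, over the searched bases that also lie before the GENCODE gene start. The printed strand is the gene's, the capitals mark the element's fixed letters, and an element on the opposite strand reads CGTGG first and ATTGG last.
Hsp90b1: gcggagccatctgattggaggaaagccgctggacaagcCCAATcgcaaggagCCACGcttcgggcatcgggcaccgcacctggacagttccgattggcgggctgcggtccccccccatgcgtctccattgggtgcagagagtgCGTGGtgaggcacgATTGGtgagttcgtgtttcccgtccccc
Calr: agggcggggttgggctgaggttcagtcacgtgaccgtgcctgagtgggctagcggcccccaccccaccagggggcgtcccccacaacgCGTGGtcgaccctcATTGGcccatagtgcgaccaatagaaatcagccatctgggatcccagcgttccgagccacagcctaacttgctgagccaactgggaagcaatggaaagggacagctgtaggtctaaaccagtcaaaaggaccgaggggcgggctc
Ero1l, the gene with the widest range of levels in the set, held none in its 250 bases. Among 117 genes of the other pathway lists that had an entry, 1 held the element, Derl3 of ERAD. The related element known as ERSE-II, ATTGG and CCACG with 1 base between them, was found in Herpud1 alone (0.0304% of all promoters), and TGACGTGG, the element preferred by XBP1, in none of the 29 (0.563% of all promoters). TGATGNAA, a form of the element bound by ATF4 with its partners, was found in 1 of the 29, also Herpud1 (3.45% of all promoters). Of the 117 genes of the other lists, 7 held TGACGTGG and 12 held TGATGNAA, 8 of the latter among the 23 matched targets of the integrated stress response, the ATF4 programme. A match of letters is a description of the sequence, and no match says only that those letters are not in that window.

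**Figure D1:**
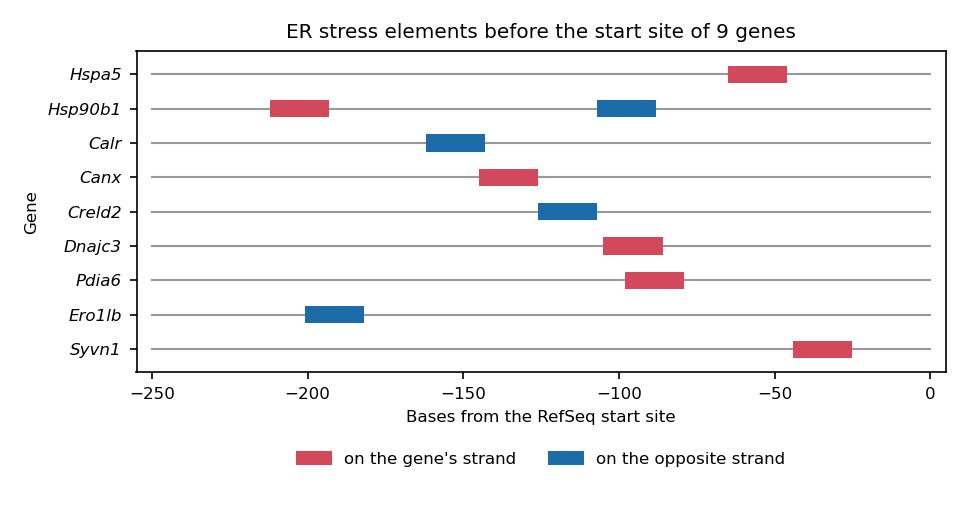
Position of each ER stress element in the 250 bases before the RefSeq start site, in bases from the start (horizontal axis), for the 9 genes that hold one. Red bars are elements on the gene's strand and blue bars those on the opposite strand; the 10 elements lie between 212 and 26 bases before the start.

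The libraries held 4637812 reads in shared genes for NK, 9298162 for ILC2, and 25617762 and 15177345 for MNK-3 replicates 1 and 2. MNK-3 replicate 1 stood apart: 75.8% of its reads fell in no gene, against 23.1% to 47.1% in the others, and 95.6% of shared genes had a count there, against 69.6% to 76.0%. Levels are given as CPM, read counts relative to library size, scaled by trimmed means (TMM). On that scale replicate 1 lay below replicate 2 for 33 of the 34 genes, at a median log2 ratio of -1.0, close to the -0.98 of the 2756 genes that average 100 CPM or more. With library totals in place of TMM the median was -0.30. Both MNK-3 values are therefore given throughout, replicate 1 first. The cell labels were checked on defining genes. Ncr1 had 1075 CPM in NK and no counts in ILC2, Il5 had 1635 CPM and Il13 2038 CPM in ILC2, and Il23r, a receptor chain for IL-23, had 151 and 359 CPM in MNK-3 and no counts in NK or ILC2. Il17rb, a receptor chain for IL-25, was low in ILC2 at 4.87 CPM.

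Most of the 34 genes had their highest level in ILC2. ILC2 was the highest of the 4 libraries for 31 of them, against 13.9% of all genes tested; the exceptions, Eif2ak3, Ddit3 and Trib3, were highest in MNK-3 replicate 2. Of the 2756 genes that average 100 CPM or more, ILC2 was the highest for 34%. With library totals the number was 29 of 34. Together the 34 genes took 2.04% of the ILC2 library's gene reads, against 0.734% in NK and 0.577% and 0.742% in the MNK-3 pair. These shares are on the scale of library totals and, as that scale does, depend on the other genes of each library. In bulk RNA, fewer cells of a type and less RNA per cell cannot be told apart.

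**Figure D2:**
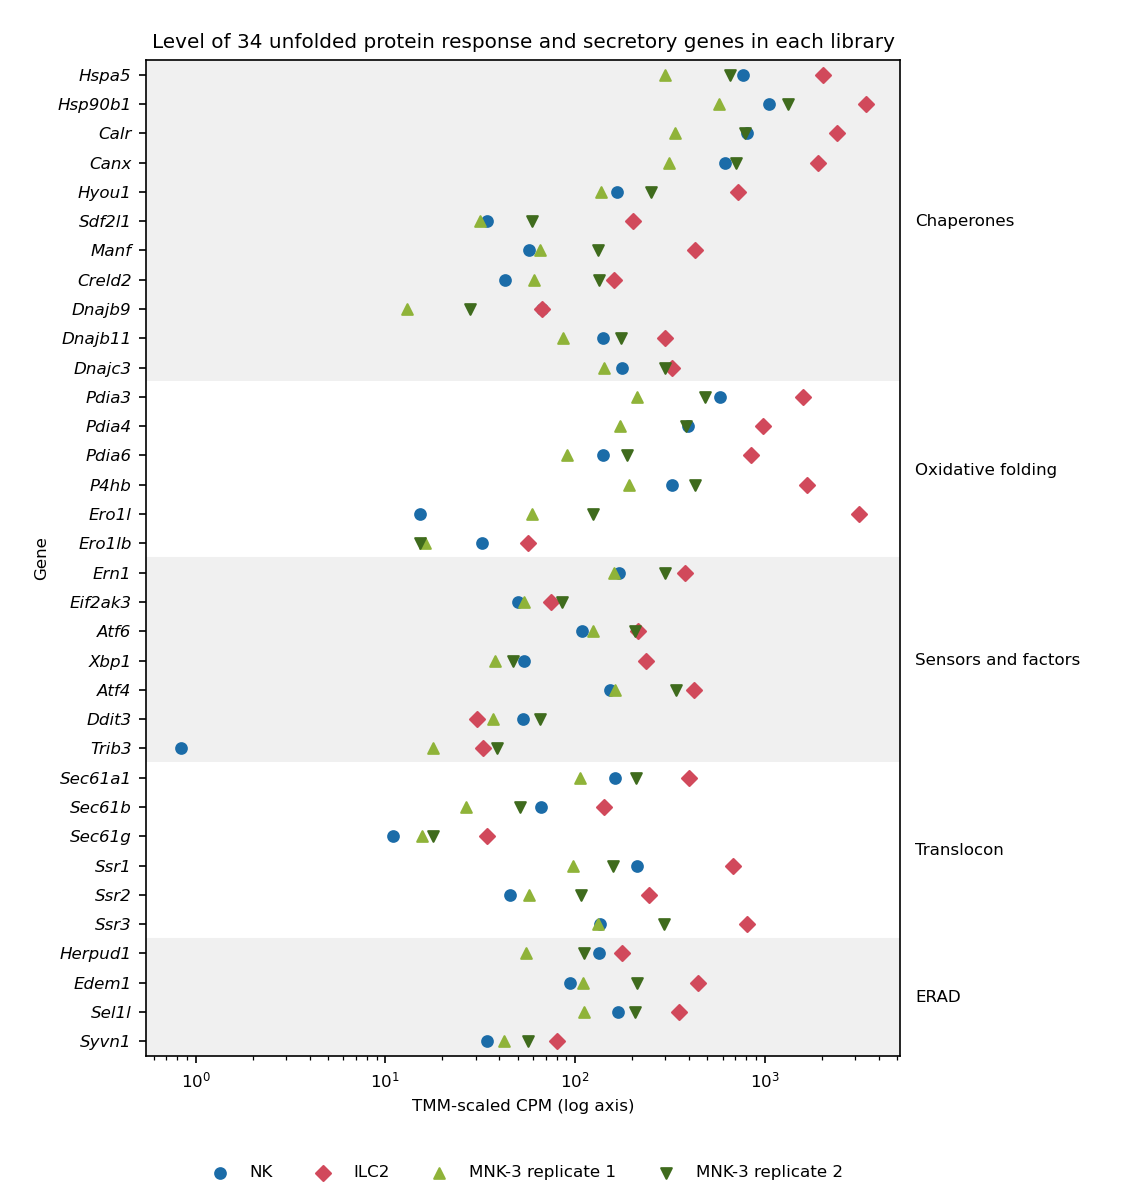
Level of each of the 34 genes in each library, as TMM-scaled CPM on a log axis, with genes grouped by role. Each point is 1 library. ILC2 (diamonds) lies farthest to the right for 31 genes, and for Dnajb9 the NK point lies under the ILC2 point.

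The ILC2 and NK libraries were compared first. ILC2 had a higher level for 33 of 34 genes. The log2 ratio had a median of 1.53, and 27 lay at least 2-fold higher and none 2-fold lower. Of all genes tested 15.2% lay 2-fold higher in ILC2 (15.6% lower) around a median of -0.05, and of the 2756 abundant genes 28.9% lay 2-fold higher. With library totals 20 of the 34 lay 2-fold higher and 1 as far lower. No gene passed the test in limma voom in this comparison (adjusted p under 0.05, 0% of genes higher and 0% lower), hence 0 of the 34, although 7 of the 34 and 587 of all genes had an unadjusted p under 0.05. With library totals 12 of the 34 were called, all higher in ILC2, against 0.479% of genes tested (121 genes, all of them among the abundant ones). With factors from abundant genes 2 were called, Hsp90b1 and Calr (0.0316% of genes). Since the calls depend on the scaling, levels are given gene by gene. NK and ILC2 have 1 library each, so each p-value rests on the spread between the MNK-3 pair, which may be technical.

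MNK-3 and ILC2 were compared next. MNK-3 was lower for 33 of 34 genes. The median log2 ratio was -1.75, with 25 genes at least 2-fold lower. Of all genes 8.55% lay 2-fold lower in MNK-3 (40.1% higher) around a median of 0.78, and of abundant genes 22.8% were 2-fold lower. With library totals 20 of the 34 lay 2-fold lower and 1 as far higher. Both MNK-3 libraries lay below ILC2 for 31 genes, against 17.9% of all genes and 43.3% of abundant ones. Without replicate 1 the set's median was -1.30 with 20 genes 2-fold lower, and without replicate 2 it was -2.21 with 29. The median over all genes was 0 without replicate 1, with 14.2% of genes 2-fold lower and 12.9% higher. Over abundant genes it was 0.13, with 14.5% lower. Without replicate 2 these medians were 1.16 and -0.80, with 11.0% and 41.1% of genes 2-fold lower. In limma voom 0 of the 34 passed (0.332% of genes called lower and 0.00791% higher). An unadjusted p under 0.05 was found for 8 of the 34 and for 905 of the 25283 genes tested. With library totals 19 were called lower (2.37% of genes), and with abundant-gene factors 12 (0.874%). This comparison and the one before share the ILC2 library.

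MNK-3 and NK had similar levels as a set, and the median log2 ratio was -0.03. In MNK-3 3 genes lay 2-fold or more above NK and 2 lay as far below. The median over all genes was 0.68, with 35.2% of genes 2-fold higher and 7.16% lower. The set's median was 0.42 without replicate 1 and -0.52 without replicate 2. Over all genes these medians were -0.07 and 1.01, and over the abundant genes 0.49 and -0.43. Of all genes, 18.6% lay 2-fold higher and 22.2% lower without replicate 1, so the set's place relative to all genes depends on that library. NK lay above both MNK-3 libraries for 10 genes, between them for 13 and below both for 11, against 14.7% of all genes with both MNK-3 libraries below NK and 32.8% with both above. These counts depended on the scaling: they were 10, 22 and 2 with median of ratios, 11, 7 and 16 with library totals, and 13, 5 and 16 with abundant-gene factors. In limma voom 0 of 34 passed (0.514% of genes called lower, 0.00791% higher). An unadjusted p under 0.05 was found for 1 of them, Dnajb9, and for 883 of the 25283 genes tested. Library totals also gave 0 of 34 (0.289% of genes called higher and 2.04% lower), as did abundant-gene factors (0% and 0.344%).

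**Figure D3:**
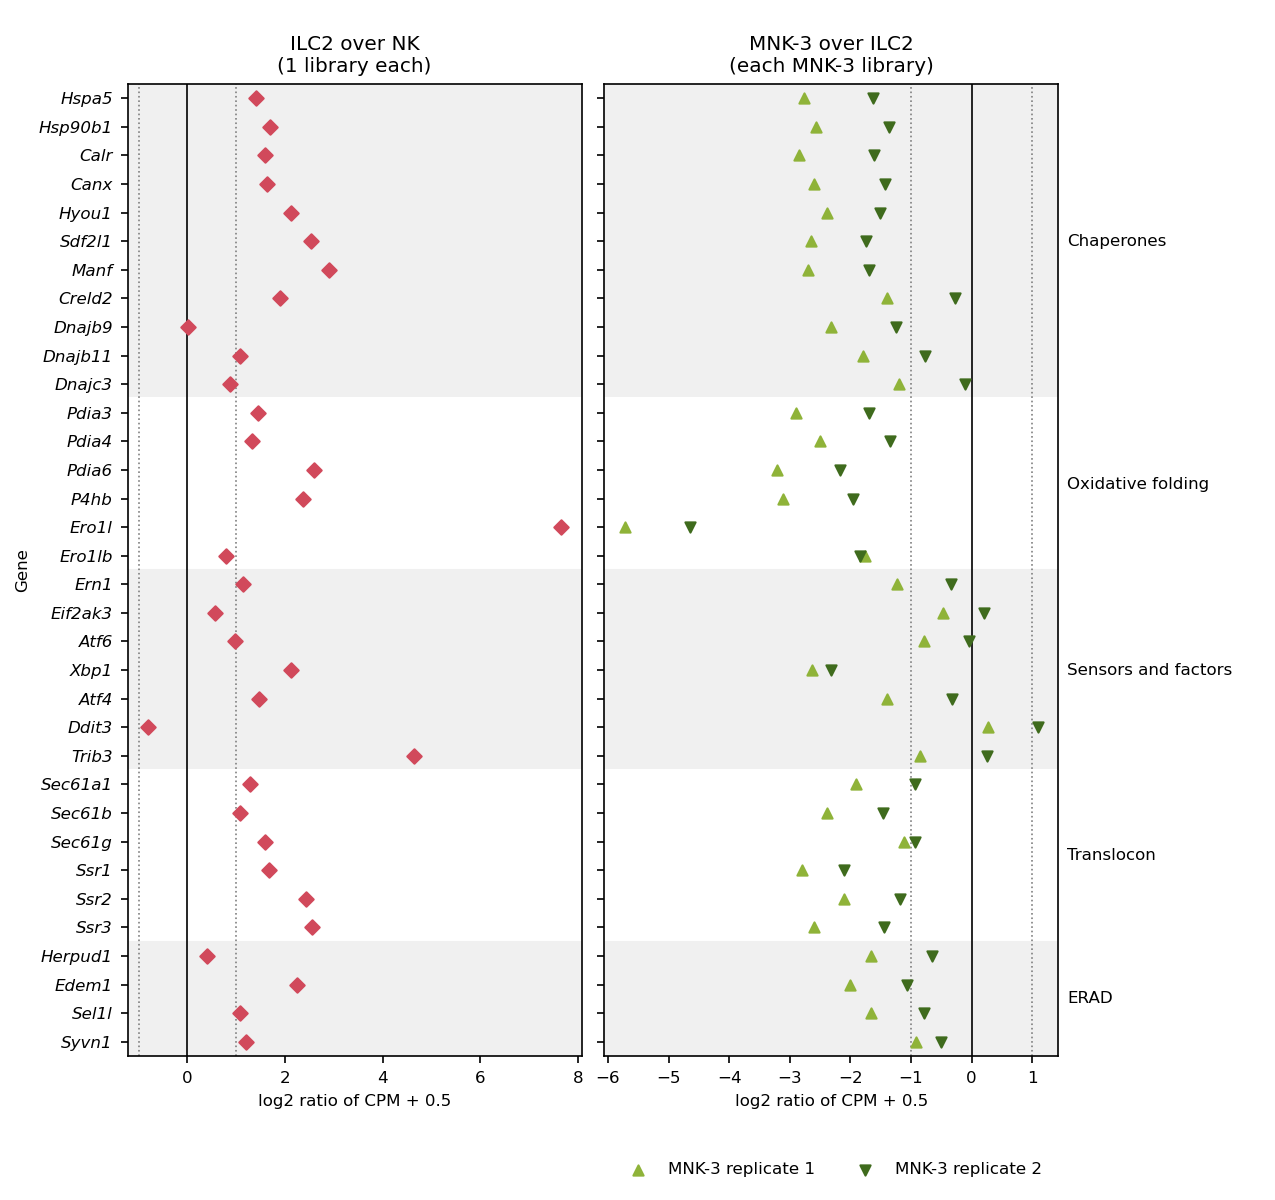
Log2 ratio of CPM + 0.5 for each gene, ILC2 over NK on the left and each MNK-3 library over ILC2 on the right; each point compares 1 library with 1 other, and dotted lines mark 2-fold. On the left 27 of 34 points lie beyond 2-fold higher, with Ero1l at 7.65, and on the right both MNK-3 points lie below 0 for 31 genes.

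The ER chaperones were among the most abundant members. Hspa5 (ENSMUSG00000026864, chr2:34771970-34777547), the Hsp70 chaperone that also holds the sensors inactive, had 770.2 CPM in NK, 2030.4 in ILC2, and 298 and 660.2 in MNK-3. Hsp90b1 (ENSMUSG00000020048, chr10:86690209-86705509), the ER member of the Hsp90 family, had 1058 CPM in NK, 3415 in ILC2, and 574 and 1328 in MNK-3. Of the 38-base words of Hsp90b1, 11.3% also occur in transcripts of other genes, so its count is uncertain. In both genes ILC2 stood above the other 3 libraries and MNK-3 replicate 1 was the lowest. Per kilobase of exon, Hsp90b1 and Calr held the first and second place among the 34 in ILC2 and in both MNK-3 libraries, and the reverse in NK. The lectin chaperones that bind newly made glycoproteins were likewise highest in ILC2 and lowest in MNK-3 replicate 1. Calr, calreticulin, had 807 CPM in NK, 2418 in ILC2, and 336 and 793 in MNK-3. Canx, its membrane-bound relative calnexin, had 616 CPM in NK, 1909 in ILC2, and 315 and 705 in MNK-3. ILC2 was 2.64-fold above NK for Hspa5, 3.23-fold for Hsp90b1, 2.99-fold for Calr and 3.10-fold for Canx. With library totals these 4 were called higher in ILC2 than in NK, as were 0.479% of genes tested. The adjusted p-values in limma voom were then 0.00998, 1.64e-05, 5.42e-04 and 9.16e-04. On TMM none of these genes was called, and with abundant-gene factors only Hsp90b1 and Calr were.

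Larger ratios lay among the less abundant chaperone genes. Hyou1, the large Hsp70-like exchange factor of BiP, had 166 CPM in NK, 720.1 in ILC2, and 138 and 252 in MNK-3. Sdf2l1, an ER protein found in complexes with BiP cochaperones, had 34.3 CPM in NK, 201 in ILC2, and 31.7 and 59.6 in MNK-3. Manf, a small ER-resident protein that is secreted under stress, had 57 CPM in NK, 428 in ILC2, and 65.7 and 132 in MNK-3. For all 3, NK and MNK-3 replicate 1 were close and ILC2 lay 4.33- to 7.45-fold above NK. The log2 fold of Manf in limma voom was 2.91 (SE 1.15, adjusted p 1.00), and 2.56 with library totals (adjusted p 0.0343). Creld2, an ER-stress-inducible protein with disulfide isomerase activity, had 42.9 CPM in NK, 161 in ILC2, and 60.8 and 133 in MNK-3; here MNK-3 replicate 2 came close to ILC2, and both MNK-3 libraries lay above NK. The log2 fold of Creld2 in MNK-3 over NK was 1.17 (SE 0.93, limma voom adjusted p 1.00).

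The J-domain cochaperones of BiP did not share an order. Dnajb11 had 141 CPM in NK, 299 in ILC2, and 86.4 and 175 in MNK-3. Dnajc3 had 178 CPM in NK, 325 in ILC2, and 142 and 300.2 in MNK-3. Both had their highest level in ILC2, and for Dnajc3 MNK-3 replicate 2 was within 1.08-fold of it. Dnajb9, which binds IRE1 and holds it inactive with BiP, had 66.8 CPM in NK, 67.3 in ILC2, and 13 and 28.1 in MNK-3. NK and ILC2 did not differ there beyond counting error (log2 ratio 0.01, 95% interval -0.19 to 0.22, counting error only), and the sign turned with library totals (-0.33). Both MNK-3 libraries lay below NK and ILC2. The log2 fold of Dnajb9 in MNK-3 over NK was -1.79 (SE 0.83, limma voom adjusted p 1.00), and of the 6 fits run it was called lower in MNK-3, against either cell type, in the 1 with all libraries thinned to the NK depth (1.53% of genes called lower against NK, 1.01% against ILC2). Of the 11 chaperone genes, 9 lay at least 2-fold higher in ILC2 than in NK and 9 at least 2-fold lower in MNK-3 than in ILC2.

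Oxidative folding held the gene with the widest range. Ero1l (ENSMUSG00000021831, chr14:45283087-45318771, minus strand), listed as Ero1a in RefSeq, encodes the oxidase that passes oxidizing power to protein disulfide isomerases. It had 73 reads in NK against 23860 in ILC2, or 15.2 CPM in NK, 3144 in ILC2, and 59.1 and 125 in MNK-3. ILC2 stood far above all other libraries, and both MNK-3 libraries lay above NK. The ratio of ILC2 to NK was 200.4-fold (log2 7.65, 95% counting interval 7.36 to 8.04), and ILC2 lay 52.8- and 25-fold above the MNK-3 libraries. Per kilobase of exon, Ero1l moved from place 33 among the 34 genes in NK to place 3 in ILC2, and held places 27 and 25 in MNK-3.

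In limma voom the log2 fold of Ero1l was 7.68 in ILC2 over NK (SE 1.79, adjusted p 0.206), -5.10 in MNK-3 over ILC2 (SE 1.45, adjusted p 0.0893) and 2.59 in MNK-3 over NK (SE 1.35, adjusted p 1.00). It missed the threshold on TMM with the filter, and passed in both comparisons with ILC2 with library totals, with no filter and after thinning. The last 2 settings called 0.0238% and 0.804% of genes higher in ILC2 than in NK, and 0.374% and 1.01% lower in MNK-3 than in ILC2. After thinning Ero1l was also called higher in MNK-3 than in NK (adjusted p 0.027, 1.24% of genes). For ILC2 over NK, adjusted p ran from 4.91e-05 after thinning to 1.00 with abundant-gene factors. Ero1lb (Ero1b in RefSeq), its paralogue, had 32.5 CPM in NK, 56.3 in ILC2, and 16.2 and 15.2 in MNK-3. It lay 1.72-fold higher in ILC2 than in NK and was low in both MNK-3 libraries. Ero1lb is the member with the least scaled signal per kilobase in ILC2 and MNK-3. Of its 38-base words 10.7% also occur in transcripts of other genes, so its count is uncertain.

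The disulfide isomerases themselves were all highest in ILC2. Pdia3, which works with calnexin and calreticulin, had 581 CPM in NK, 1586 in ILC2, and 213 and 487 in MNK-3. Pdia4 had 392 CPM in NK, 982 in ILC2, and 174 and 385 in MNK-3. In these 2 genes NK lay above both MNK-3 libraries. Pdia6 (ENSMUSG00000020571, chr12:17266545-17284770), which also acts on the luminal part of IRE1, had 140.0 CPM in NK, 846 in ILC2, and 90.5 and 188 in MNK-3. P4hb, the founding disulfide isomerase and a subunit of the collagen prolyl hydroxylases, had 324 CPM in NK, 1677 in ILC2, and 193 and 431 in MNK-3. For Pdia6 and P4hb NK lay between the MNK-3 libraries, and ILC2 was 6.03- and 5.17-fold above NK. The log2 fold of Pdia6 was 2.59 in ILC2 over NK (SE 1.27, limma voom adjusted p 1.00; 1.08e-04 with library totals) and -2.60 in MNK-3 over ILC2 (SE 1.23, adjusted p 1.00; 3.34e-17 with library totals). P4hb had -2.43 in MNK-3 over ILC2 (SE 1.39, limma voom adjusted p 1.00; 1.86e-21 with library totals). The 6 oxidative folding genes took 0.677% of the ILC2 library's gene reads, against 0.154% in NK and 0.104% and 0.139% in the MNK-3 pair, and all 6 lay at least 2-fold below ILC2 in each MNK-3 library.

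**Figure D4:**
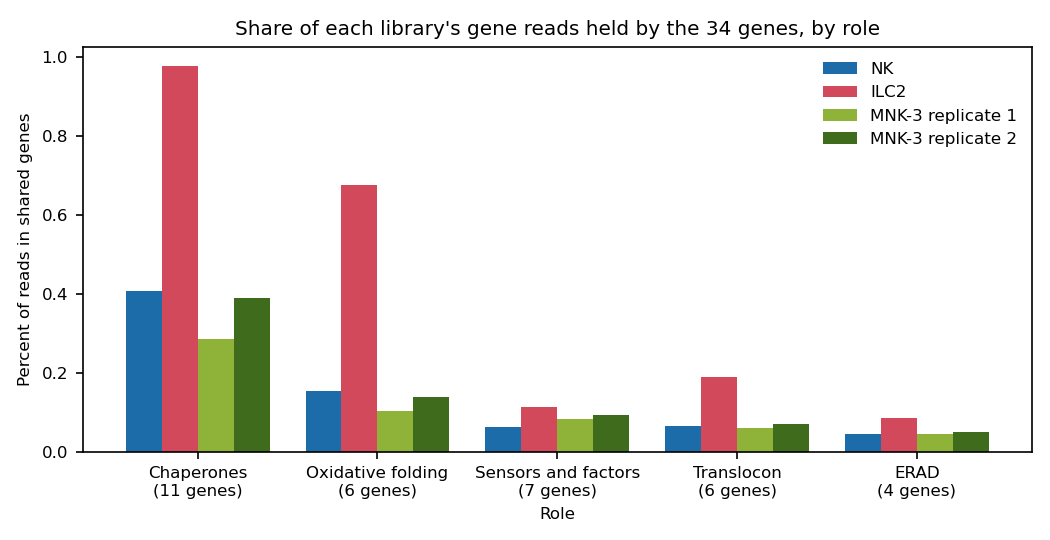
Percent of each library's reads in shared genes that fell in the 34 genes, by role; each bar is 1 library and the axis starts at 0. The ILC2 bar is the highest in every role, from 0.977% for chaperones to 0.0862% for ERAD.

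The genes of the 3 sensors were read next. Ern1, which encodes IRE1, had 171 CPM in NK, 380.5 in ILC2, and 161 and 299.8 in MNK-3. Eif2ak3, which encodes PERK, had 49.9 CPM in NK, 74.6 in ILC2, and 53.7 and 85.9 in MNK-3. Atf6 had 109 CPM in NK, 214 in ILC2, and 125 and 208 in MNK-3. Ern1 alone of the 3 lay over 2-fold higher in ILC2 than in NK (2.22-fold), and MNK-3 replicate 2 lay above ILC2 for Eif2ak3 and just below it for Atf6. For Eif2ak3 and Atf6, and for Trib3 below, the log2 ratio of MNK-3 over ILC2 turned positive with library totals and with abundant-gene factors. For Atf6 with library totals the levels were nearly equal, at 175.1 CPM in ILC2, and 173.2 and 177.5 in MNK-3. The log2 fold of Atf6 in limma voom was then -0.001.

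Xbp1 (ENSMUSG00000020484, chr11:5520659-5525893, plus strand) was the transcription factor gene that stood out in ILC2. It had 54.1 CPM in NK, 238 in ILC2, and 37.8 and 47.1 in MNK-3. ILC2 lay 4.36-fold above NK and 6.22- and 5.0-fold above the MNK-3 libraries. On TMM the MNK-3 libraries lay closer to each other than for most members. With library totals they had 52.5 and 40.1 CPM, which is not closer than for most members, so this depended on the scaling. The log2 fold in MNK-3 over ILC2 was -2.47 (SE 0.98, limma voom adjusted p 0.688), and -2.04 with library totals (adjusted p 5.05e-06). The mRNA is activated by removal of 26 bases, shown in capitals within bases 815 to 840 of the GENCODE M21 transcript Xbp1-201, with 20 bases on either side.
Xbp1: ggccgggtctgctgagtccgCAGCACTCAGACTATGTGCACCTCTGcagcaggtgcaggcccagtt
Counts per gene hold reads from both forms, so the spliced share was not analysed here.

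Genes of the PERK branch differed in order. Atf4 had 154 CPM in NK, 427 in ILC2, and 162 and 341 in MNK-3. It was highest in ILC2, with MNK-3 replicate 2 next. Ddit3, which encodes the transcription factor CHOP, had 53.5 CPM in NK, 30.4 in ILC2, and 36.8 and 65.3 in MNK-3. On TMM it was the 1 member lower in ILC2 than in NK (log2 ratio -0.80, counting interval -1.08 to -0.55). It was also, on TMM, the 1 member with both MNK-3 libraries above ILC2. With library totals Eif2ak3 was another, at 60.9 CPM in ILC2, and 74.6 and 73.2 in MNK-3. Ddit3 shares 10.9% of its exonic length with other entries, including one on the opposite strand for Mars, and the strand setting of the counting is not known. Trib3 (ENSMUSG00000032715, chr2:152337422-152344032), a pseudokinase gene that is a target of ATF4 and CHOP, had 4 reads in NK, or 0.832 CPM in NK, 32.8 in ILC2, and 17.9 and 39 in MNK-3. NK stood far below the other 3 libraries. The log2 ratio was 4.64 in ILC2 over NK (counting interval 3.93 to 7.19 with no CPM added) and 4.44 in MNK-3 over NK. With 2 CPM added in place of 0.5 these ratios were 3.62 and 3.43. Neither comparison passed in limma voom (log2 fold 5.13 and 4.88, SE 3.98 and 3.96, adjusted p 1.00 and 1.00).

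On TMM the 6 genes of the translocon all lay at least 2-fold higher in ILC2 than in NK; with library totals Sec61a1 and Sec61b did not, at log2 ratios of 0.95 and 0.74. Sec61a1, the channel itself, had 164 CPM in NK, 401 in ILC2, and 107 and 209.6 in MNK-3. Its small partner Sec61b had 66.6 CPM in NK, 142 in ILC2, and 26.8 and 51.2 in MNK-3. The third subunit gene, Sec61g, had 11 CPM in NK, 34.4 in ILC2, and 15.6 and 17.8 in MNK-3. These ratios of ILC2 to NK were 2.45-, 2.12- and 3.03-fold, and 21.3% of the 38-base words of Sec61b, 15.3% of those of Sec61g and, among the genes below, 13.4% of those of Ssr2 also occur in transcripts of other genes, so their counts are uncertain. Genes of the translocon-associated protein complex, which helps chosen signal sequences through the channel, had larger ratios. Ssr1 had 213 CPM in NK, 682 in ILC2, and 97.2 and 158 in MNK-3. Ssr2 had 45.6 CPM in NK, 246 in ILC2, and 57 and 108 in MNK-3. Ssr3 had 136 CPM in NK, 804 in ILC2, and 132 and 295 in MNK-3. ILC2 stood above every other library in all 3, by 3.20-, 5.35- and 5.90-fold over NK. Of the 6 translocon genes, Ssr3 alone was called in ILC2 over NK with library totals (limma voom adjusted p 1.94e-04).

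Of the ERAD genes, Edem1 had the largest ratio. Edem1, which takes misfolded glycoproteins toward degradation, had 93.6 CPM in NK, 445 in ILC2, and 111 and 213 in MNK-3. Sel1l, the adaptor of the ERAD ubiquitin ligase complex, had 169 CPM in NK, 355 in ILC2, and 112 and 206 in MNK-3. Syvn1, which encodes the ligase HRD1, had 34.3 CPM in NK, 80.1 in ILC2, and 42.1 and 56.2 in MNK-3. ILC2 was the highest in all 3, by 4.73-, 2.10- and 2.31-fold over NK. Herpud1, a stress-inducible scaffold of the same complex and the holder of the ERSE-II letters ATTGGgCCACG, had 134 CPM in NK, 176 in ILC2, and 55.5 and 111 in MNK-3. ILC2 was 1.32-fold above NK, and NK lay above both MNK-3 libraries.

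Levels were also read by the presence of the ER stress element. In ILC2 over NK, the median log2 ratio was 1.58 for the 9 genes that hold it, of which 7 lay at least 2-fold higher. It was 1.46 for the 20 matched genes without it, with 16 as far higher, and 2.12 for the 5 with no entry, with 4. For MNK-3 over ILC2 the medians were -1.84, -1.57 and -1.57. These are descriptions, with no test. The 3 largest ratios of ILC2 to NK in the set, those of Ero1l, Trib3 and Manf, came from genes without an element in the stretch searched or, for Manf, without an entry.

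Genes of the same pathways outside the set were read from fixed lists, none of whose members passed the test on TMM in any comparison. For the counts below, 15.2% of all genes and 28.9% of abundant ones lay at least 2-fold higher in ILC2 than in NK. Folding genes of the ER that are not members lay higher in ILC2 than in NK in 18 of 19 cases (median log2 1.75, 16 at least 2-fold), among them Pdia5, a disulfide isomerase, at 0.624 CPM in NK, 28.5 in ILC2, and 31.2 and 60.0 in MNK-3. Fkbp11, a prolyl isomerase of secretory cells, had 0.624 CPM in NK, 17 in ILC2, and 3.37 and 1.08 in MNK-3. In NK both genes lay below the 0.832 CPM that 4 reads of Trib3 gave, so their ratios to NK are uncertain. N-glycosylation genes had a median of 1.43 with 16 of 21 at least 2-fold higher in ILC2. Stt3b, a catalytic subunit of the oligosaccharyl transferase, had 108 CPM in NK, 688 in ILC2, and 281 and 635 in MNK-3, so that MNK-3 replicate 2 lay near ILC2. Rpn2, another subunit, had 154 CPM in NK, 778 in ILC2, and 181 and 382 in MNK-3.

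Targeting and translocation genes had a median log2 of 1.07 in ILC2 over NK, with 10 of 19 at least 2-fold higher. Spcs3, a subunit of signal peptidase, had 119 CPM in NK, 885 in ILC2, and 94.2 and 211 in MNK-3. Sec11c, a catalytic subunit of the same enzyme, had 98 CPM in NK, 393 in ILC2, and 138 and 290.2 in MNK-3. ER to Golgi transport genes had a median of 1.06 and lay higher in ILC2 for 26 of 26, 16 of them at least 2-fold. Lman1, a cargo receptor for glycoproteins, had 48.7 CPM in NK, 468 in ILC2, and 91.5 and 173 in MNK-3, and Sec24d, a cargo adaptor of the COPII coat, had 28.5 CPM in NK, 160.2 in ILC2, and 20.4 and 31.1 in MNK-3. The remaining ERAD genes had a lower median, 0.60, with 5 of 18 at least 2-fold higher. That is 27.8%, near the 28.9% of abundant genes. Among the 5 were Edem2 at 29.8 CPM in NK, 137 in ILC2, and 42.2 and 55.9 in MNK-3 and Vimp at 40.0 CPM in NK, 173 in ILC2, and 26.4 and 45.9 in MNK-3. With library totals 3 N-glycosylation, 2 transport, 1 targeting, 0 other folding and 0 other ERAD genes were called higher in ILC2 than in NK, against 0.479% of genes tested.

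Targets of the integrated stress response took another order. Their median log2 ratio was 1.92 in ILC2 over NK and 1.75 in MNK-3 over NK, with 22 and 19 of 28 genes at least 2-fold higher, and -0.48 in MNK-3 over ILC2. Over all genes these medians were -0.05, 0.68 and 0.78, and 15.2% and 35.2% of genes lay 2-fold above NK in ILC2 and MNK-3. Without MNK-3 replicate 1 the medians over NK and over ILC2 were 1.63 and -0.17 for the targets, and -0.07 and 0 over all genes. NK was the low library for most of these targets, though not for all. Both MNK-3 libraries lay above NK for 19 of the 28 and below it for 5 (32.8% and 14.7% of all genes). Ddit4 had 48.9 CPM in NK, 336 in ILC2, and 31.9 and 28.6 in MNK-3. Vldlr had 7.91 CPM in NK, 31.2 in ILC2, and 3.99 and 0.619 in MNK-3. The 2 comparisons with NK share the NK library. Asns, asparagine synthetase, had 1.04 CPM in NK, 170.0 in ILC2, and 119 and 288 in MNK-3. Mthfd2, a mitochondrial folate enzyme, had 3.12 CPM in NK, 223 in ILC2, and 125 and 273 in MNK-3. Nupr1, a stress-inducible chromatin protein, had 0.416 CPM in NK, 65 in ILC2, and 21.1 and 33 in MNK-3. In NK Nupr1 lay below the 0.832 CPM that 4 reads of Trib3 gave, and Asns little above it, so the ratios of Nupr1 and Asns to NK are uncertain. On TMM limma voom called 0 of the 28 in each comparison, with 7 at an unadjusted p under 0.05 in each comparison with NK and 2 in MNK-3 over ILC2. Of the 25283 genes tested, 587 had such a p in ILC2 over NK, 883 in MNK-3 over NK and 905 in MNK-3 over ILC2. Library totals called 2 higher in ILC2 over NK (0.479% of genes), 1 higher and 1 lower in MNK-3 over NK (0.289% and 2.04%), and 1 higher and 3 lower in MNK-3 over ILC2 (0.902% and 2.37%). Sensors and regulators of stress that are not members had a median of 0.64 in ILC2 over NK, with 5 of 15 at least 2-fold higher. That is 33.3%, near the 28.9% of abundant genes. Creb3l2, an ATF6-like membrane-bound factor, had 32 CPM in NK, 177 in ILC2, and 25.9 and 53.8 in MNK-3.

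Markers of other cells that make much ER were read beside these levels, since plasma cells carry high amounts of the same genes. The 11 B and plasma cell markers summed to 132 CPM in NK, 213 in ILC2, and 199 and 338 in MNK-3. In ILC2 most of the sum was Ighm (157 CPM) and Cd79b (46.1 CPM), Ms4a1 and Igkc were at 0, and Jchain had 1 count and Mzb1 2. Igkc and Ms4a1 at 0 of 9298162 reads allow up to 3 reads each. In MNK-3 the sum was mostly Sdc1 (123 and 251 CPM), with Cd79b and Jchain at 0 in replicate 2. Summed myeloid markers ran from 4.72 to 34.5 CPM, T cell markers from 15.5 to 98.1 and erythroid markers from 4.87 to 23.9, each highest in MNK-3 replicate 1. The part of these RNAs in the levels of the 34 genes was not tested.

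**Figure D5:**
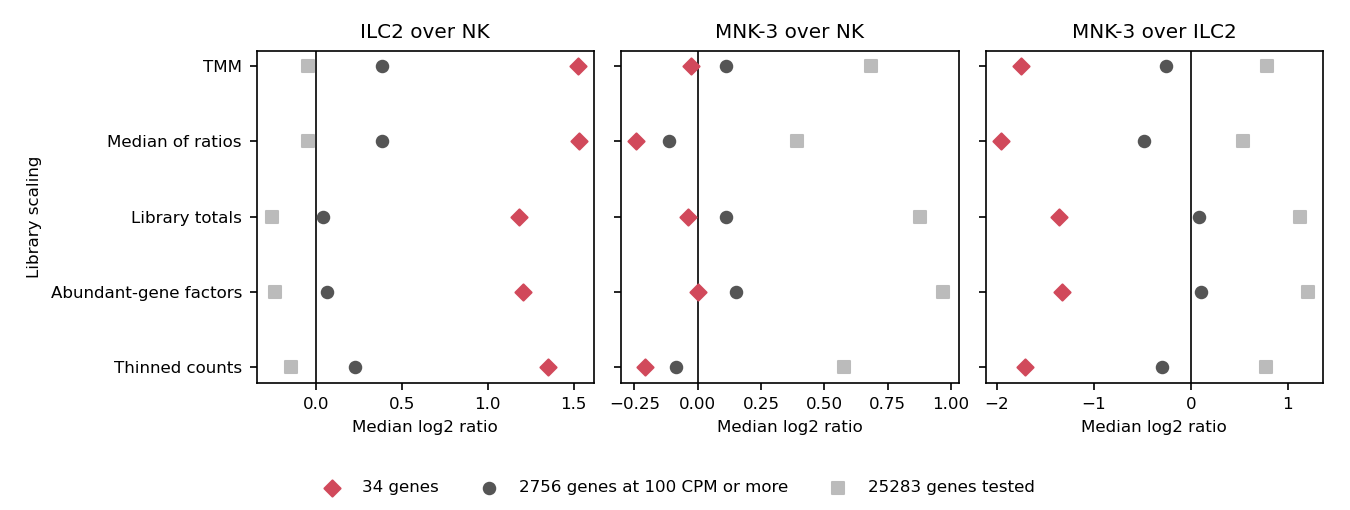
Median log2 ratio of the 34 genes (diamonds), of the 2756 genes that average 100 CPM or more (circles) and of all 25283 genes tested (squares) under 5 ways to scale the libraries, 1 panel per comparison; after thinning fewer genes were tested, but the medians are over the same genes. The members' median stays between 1.18 and 1.53 in ILC2 over NK and between -1.96 and -1.32 in MNK-3 over ILC2.

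The medians depended on the choice of scaling. The median over all genes was -0.05 with TMM and -0.26 with library totals in ILC2 over NK, 0.68 and 0.88 in MNK-3 over NK, and 0.78 and 1.12 in MNK-3 over ILC2. Over the abundant genes it was 0.39 and 0.04 in ILC2 over NK, 0.11 and 0.11 in MNK-3 over NK, and -0.25 and 0.08 in MNK-3 over ILC2. The 34 genes had 1.53 and 1.18, -0.03 and -0.04, and -1.75 and -1.36.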

How the data were processed

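RNA from 4 libraries was analysed: 1 of NK, 1 of ILC2 and 2 of MNK-3. Per the labels' protocols, RNA was isolated with the RNeasy Plus Micro kit, libraries were made with a stranded total RNA kit (SMARTer v2 Pico), 2 technical replicates were made per experiment, and 38 bp read pairs were sequenced on a NextSeq instrument. It is not known whether those runs were summed, as a deposited table gives 1 value per gene. STAR 2.7.8a and HTSeq were used with mm10 (GRCm38), per the submitters' processing notes; gene set and strand setting are not given in the sources used here. The deposited values, in a unit recorded as other, are whole-number read counts per gene that the authors did not normalize. NK and ILC2 list 53465 genes and MNK-3 31053; the 30731 in all tables were used. Entries that name no gene held 49.3%, 25.9%, 76.5% and 26.6% of reads in NK, ILC2 and MNK-3 replicates 1 and 2 and were left out.

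CPM were computed over shared genes and scaled by TMM in own code (trimming 30% of ratios and 5% of abundances; factors 1.04, 0.816, 1.39 and 0.852). The filter asked for at least 10 reads (in proportion to library size) and at least 15 in total. The test was limma voom (limma 3.58.1, R 4.3.3), two-sided, on all 4 libraries in 3 groups, with 1 residual degree of freedom, given by the MNK-3 libraries; the prior degrees of freedom were infinite, so SE and p rest on spread pooled over genes. Calls were made where the p-value, adjusted after Benjamini-Hochberg over the 25283 genes, was under 0.05. The MNK-3 pair differed beyond counting error (chi-square of 80.4 per degree of freedom) and was kept as 2 libraries. A log2 ratio is of CPM + 0.5, with MNK-3 as the mean of its libraries; intervals marked as counting are 95%, with no CPM added, and leave out all other error. Positions are from GENCODE M21.

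All 34 genes are named. SE and adjusted p are given for the 4 members with the largest log2 ratio in each comparison, as no member was called on TMM, and for some others the calls with another scaling, and of each other list the 2 with the largest ratio at 10 CPM or more were eligible to be named. The members and lists were chosen with earlier results of these data known. Alternatives were other scalings (median of ratios, library totals, and factors from 1414 genes at 100 CPM or more in every library), no filter, thinned counts (seed 1), 2 CPM added, and leaving out either MNK-3 library.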

Additional observations from a re-analysis of the deposited data

How the results depend on the processing

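NK had the fewest reads (4637812), with 4 counts for Trib3, and NK and ILC2 have a single library each. The members' medians kept their direction in both comparisons with ILC2: they ran from 1.18 to 1.53 in ILC2 over NK, and without one MNK-3 library or the other from -2.21 to -1.30 in MNK-3 over ILC2 and from -0.52 to 0.42 in MNK-3 over NK, where the sign depends on the library. No result reversed while called. Numbers of calls moved, and the cause was not tested. For ILC2 over NK, 0 members and 0 genes were called on TMM and with median of ratios. Library totals called 12 members higher and 121 genes higher with 207 lower; abundant-gene factors 2 members, 8 and 32; no filter 1 member, 7 and 32; thinning 1 member, 160 and 74. For MNK-3 over NK, TMM called 2 genes higher and 130 lower, median of ratios 0 higher, library totals 73 and 517, abundant-gene factors 0 higher, no filter 19 higher, and thinning 246 and 304, with 1 member higher and 1 lower. For MNK-3 over ILC2, TMM called 2 genes higher and 84 lower, median of ratios 0 and 50, library totals 228 and 600 with 19 members lower, abundant-gene factors 23 and 221 with 12 members, no filter 16 higher with 1 member lower, and thinning 58 and 201 with 2 members. The share of higher calls in MNK-3 over ILC2 thus moved with the scaling. Single members changed sign in at most 3 cases per comparison under another scaling, and in 8 (MNK-3 over NK, without replicate 1). Without either MNK-3 library no residual degrees of freedom remain, so those settings give values with no test. No paired analysis was possible because NK and ILC2 have 1 library each, so the groups share fewer than 2 replicate numbers.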
